A study of Homo sapiens with 9 samples.

Results

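The genes described here encode the proteasome: the subunits of its 20S core and 19S regulator, its activators, the proteins that help to assemble it, and NFE2L1, a transcription factor of these genes. Of 44 such genes listed, 36 were measured, among 14215 genes in all that had a probe set of their own. A probe set is a group of short probes on the array whose signals are combined into 1 value. A member was measured where the platform annotation gave a probe set to that gene alone, and every measured member had 1 such probe set. PSMD14 and PSMG2 were present only on probe sets shared with MXRA7 and CEP76, and PSMA6, PSMC1, PSMC5, PSMC6, PSMD7 and PSMD13 had no probe set under their symbols in the annotation. The measured members were 6 of 7 alpha and 8 of 8 beta subunits of the core, 6 of 9 base and 5 of 8 lid subunits of the 19S regulator, 3 of 3 assembly chaperones of the 19S regulator, 4 of 4 activators, 3 of 4 assembly factors of the core, and NFE2L1.

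The series compared SKOV3 cells, an epithelial tumour line of ovarian origin that grows in culture, after exposure to either of a pair of acetylated amino sugars or to none. The groups were cells given 50 µM peracetylated 4-deoxy-GlcNAc (Ac-4-deoxy-GlcNAc), cells given 50 µM peracetylated GlcNAc (Ac-GlcNAc), and untreated cells, each grown for 3 days in serum-containing medium. GlcNAc is N-acetylglucosamine, a sugar of many glycans, and the 4-deoxy compound lacks the hydroxyl group of that position. Each group had 3 arrays from 3 culture flasks of this 1 line. The labels name no vehicle for the untreated cells, so compound and solvent cannot be told apart.

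The proteasome breaks down proteins that carry ubiquitin chains. Its barrel-shaped core is a stack of rings: outer rings of alpha subunits form the gate, and inner rings of beta subunits hold the cutting sites. The 19S regulator caps the barrel, with a base of ATPases that unfold the substrate and a lid that helps to remove its ubiquitin, while activators such as PA28 and PA200 open the gate without the ATPases. When proteasome activity falls short in mammalian cells, NFE2L1 is released from the endoplasmic reticulum, trimmed, and raises transcription of proteasome genes through antioxidant response elements in their promoters.

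Neither compound changed the RNA of any measured proteasome gene past the threshold used here. With limma's moderated test on the log2 values and Benjamini-Hochberg adjustment over all 17859 probe sets, 0 of 36 members passed an adjusted p of 0.05 in Ac-4-deoxy-GlcNAc against untreated cells, where 11.0% of all probe sets passed. The count was also 0 of 36 in Ac-GlcNAc against untreated cells (0.442% of all probe sets) and 0 of 36 in Ac-4-deoxy-GlcNAc against Ac-GlcNAc cells (2.38% of all probe sets). An F test across the 3 groups called 0 of 36 members as well, against 8.36% of all probe sets. The smallest adjusted p among the members was 0.0723 for Ac-4-deoxy-GlcNAc against untreated, 0.0939 for Ac-GlcNAc against untreated and 0.0972 between the compounds.

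The intervals give the range of differences that the fit to the deposited values allows for each gene. The 95% confidence interval of the log2 difference stayed within a 1.5-fold change either way in 31 of 36 members for Ac-4-deoxy-GlcNAc against untreated, in 32 of 36 for Ac-GlcNAc against untreated and in 34 of 36 between the compounds. It stayed within a 2-fold change in 36 of 36 members in each of these comparisons. The members reaching past 1.5-fold were PSMB6, PSMD4, PSMD10, PSME2 and PSME4 with Ac-4-deoxy-GlcNAc, PSMA5, PSMB6, PSMD4 and PSME2 with Ac-GlcNAc, and PSMC2 and PSME2 between the compounds. These intervals are for single genes and were not widened for the number of genes. The counts within 1.5-fold and 2-fold hold for that fit alone, since some other fits gave larger differences with Ac-GlcNAc. PSMD4 had -0.74 (SE 0.15) without untreated array 1, and PSME2 had 0.87 (SE 0.22) with arrays weighted by their quality.

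**Figure D1:**
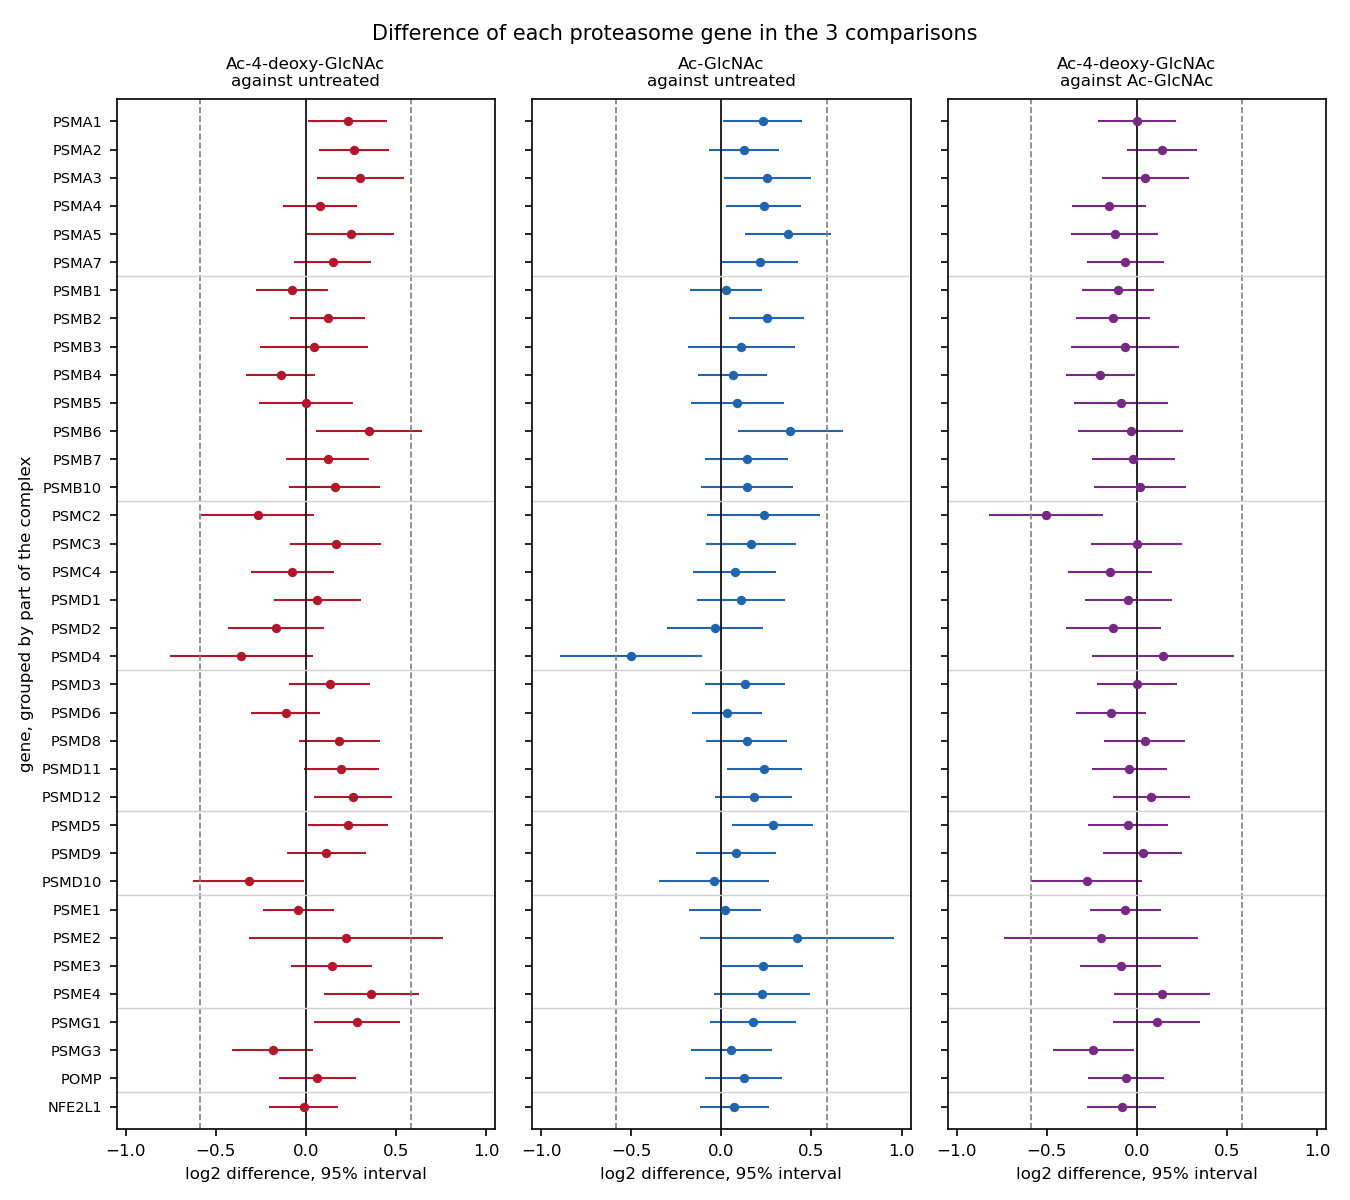
Log2 difference of each of the 36 measured genes (rows, by subunit class) in the 3 comparisons (panels), with 95% confidence intervals from limma as bars and lines at a 1.5-fold change. Every interval lies within a 2-fold change, and 31, 32 and 34 of 36 lie within 1.5-fold for Ac-4-deoxy-GlcNAc against untreated, Ac-GlcNAc against untreated, and the compounds against each other.

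Without adjustment, 10 of 36 members (27.8%) had p under 0.05 in Ac-4-deoxy-GlcNAc against untreated cells, where 31.2% of all probe sets did. Of these, 9 were higher with Ac-4-deoxy-GlcNAc (25.0% of members, 13.3% of all probe sets) and 1 was lower. In Ac-GlcNAc against untreated cells the count was 11 of 36 (30.6%), beside 26.4% of all probe sets, with 10 higher (27.8% of members, 10.3% of all probe sets) and 1 lower. Higher values thus made up more of the members' counts than of the whole array's. Among the 7416 probe sets of 1 gene above the median level, the group in which 35 of the 36 members fall, the shares higher at this p were 21.4% with Ac-4-deoxy-GlcNAc and 18.5% with Ac-GlcNAc. Between the compounds 3 of 36 members (8.33%) had p under 0.05, beside 13.6% of all probe sets. All 3 were lower with Ac-4-deoxy-GlcNAc, as were 8.26% of all probe sets and 12.5% of the 7416 probe sets of 1 gene above the median level.

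Arrays of Ac-4-deoxy-GlcNAc and untreated cells did not overlap in 11 of 36 members (30.6%, against 32.1% of all probe sets), of which 9 were higher (25.0%, against 13.0%) and 2 lower. Arrays of Ac-GlcNAc and untreated cells did not overlap in 11 of 36 members (30.6%, against 32.3%), and all 11 were higher, against 13.0% of all probe sets. Among the well-expressed probe sets of 1 gene the shares higher without overlap were 20.9% and 23.0%. Between the compounds 4 of 36 members (11.1%) did not overlap, fewer than the 21.2% of all probe sets. All 4 were lower with Ac-4-deoxy-GlcNAc, against 11.6% of all probe sets and 17.3% of the well-expressed probe sets of 1 gene. Both compounds are set against the same 3 untreated arrays, so a value that is high or low on those arrays moves both comparisons.

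The direction leaned towards higher values in treated cells, as it did for other well-expressed genes. The median log2 difference over the 36 members was 0.12 for Ac-4-deoxy-GlcNAc against untreated, with 25 members above 0 and 11 below, and 0.14 for Ac-GlcNAc against untreated, with 33 above and 3 below. Between the compounds it was -0.06, with 12 members above 0 and 24 below. Over all 14413 probe sets of 1 gene the medians were -0.05, -0.01 and 0.00 in the same comparisons. Proteasome genes are well expressed: 35 of 36 members had a mean level above the median of all probe sets. Over the 7416 probe sets of 1 gene above that level, the medians were 0.05, 0.10 and -0.05, and 59.2%, 75.4% and 37.3% of them lay above 0.

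Single arrays differed in this lean. The median deviation of the members from their untreated mean was 0.02, 0.07 and 0.25 on Ac-4-deoxy-GlcNAc arrays 1, 2 and 3, 0.15, 0.16 and 0.12 on the Ac-GlcNAc arrays, and 0.09, -0.08 and 0.01 on the untreated arrays. Untreated array 2 held the lowest of the 9 values for 21 of 36 members, and for 24.5% of all probe sets of 1 gene. Well-expressed probe sets of 1 gene had a median deviation of -0.09 there, near the members' -0.08. That array also had the narrowest spread of values, with an SD of 1.92 across its probe sets where the other 8 arrays had 2.07 to 2.18. Ac-4-deoxy-GlcNAc array 3 held the highest value for 13 members (15.7% of all probe sets of 1 gene) and Ac-4-deoxy-GlcNAc array 1 the lowest for 10 (also 15.7%). When array SD was a covariate, the members' median was 0.01 for Ac-4-deoxy-GlcNAc (20 of 36 above 0) and 0.01 for Ac-GlcNAc (19 of 36 above 0). Array SD was 2.14 to 2.18 with Ac-GlcNAc and 1.92 to 2.08 in untreated cells. This covariate thus cannot be fully told apart from that treatment. Over all probe sets, calls with Ac-GlcNAc were 2 under it and 79 without it. Without untreated array 2 the members' median was 0.07 for Ac-4-deoxy-GlcNAc and 0.09 for Ac-GlcNAc. Without Ac-4-deoxy-GlcNAc array 3 it was 0.06 for that compound. After cyclic loess scaling of the arrays it was 0.06 with 21 members above 0 and 0.04 with 23 above 0. The well-expressed probe sets of 1 gene had medians of -0.003 and 0.002 after cyclic loess for the same compounds. Their medians were -0.02 and -0.01 with array SD as a covariate, and 0.01 and 0.06 without untreated array 2.

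**Figure D2:**
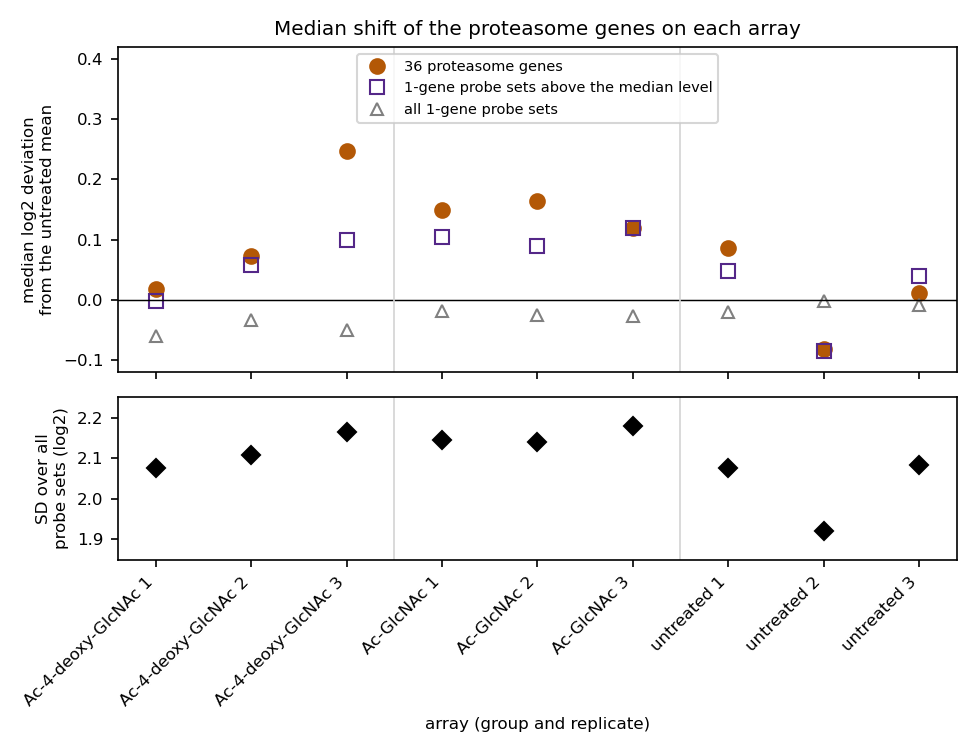
Upper panel: median deviation from the untreated mean (log2) on each of the 9 arrays, for the 36 proteasome genes, for probe sets of 1 gene above the median level and for all probe sets of 1 gene; lower panel: SD of log2 values over all probe sets. Ac-4-deoxy-GlcNAc array 3 is the highest for the proteasome genes at 0.25, and untreated array 2 is the lowest for these and for the well-expressed probe sets, at -0.08 and -0.09, and has the smallest SD.

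**Figure D3:**
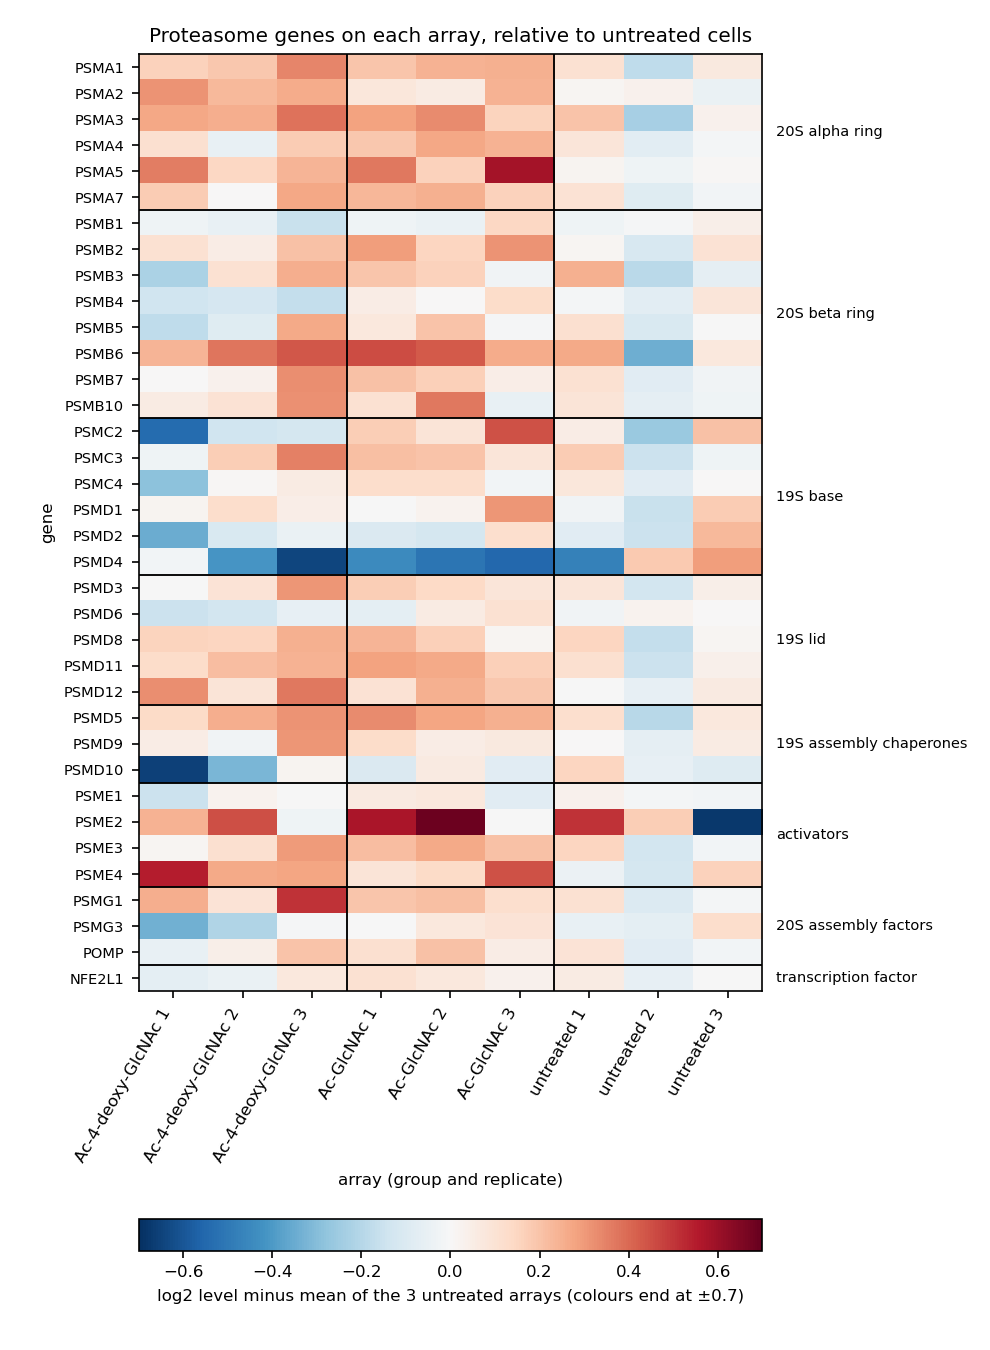
Log2 level of each of the 36 measured genes (rows, by subunit class) on each of the 9 arrays (columns, by group), minus the gene's mean over the 3 untreated arrays. The alpha subunits are above 0 on nearly every treated array, PSMD4 is below 0 on the treated arrays and on untreated array 1, and no subunit class separates the groups throughout.

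The alpha ring, which gates the barrel, was higher in treated cells in all of its measured genes, though none of them passed the test. Its 6 measured genes lay above 0 in 6 of 6 cases with Ac-4-deoxy-GlcNAc (median log2 difference 0.24, range 0.08 to 0.30) and in 6 of 6 with Ac-GlcNAc (median 0.23, range 0.13 to 0.37). They stayed 6 of 6 above 0 for both compounds after cyclic loess, with medians of 0.17 and 0.12, without untreated array 2, with medians of 0.17 and 0.16, and with array SD as a covariate, with medians of 0.11 and 0.13. The shares above 0 among well-expressed probe sets of 1 gene, given above, were 59.2% and 75.4% with the values as deposited. Of these 7416 probe sets, 3656 and 3723 lay above 0 after cyclic loess. The counts were 3850 and 5091 without untreated array 2, and 3399 and 3522 with array SD as a covariate. Between the compounds the median was -0.03, with 3 above 0 and 3 below. The class as a whole was not tested.

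PSMA3 and PSMA5 had the largest differences of this ring. PSMA3, an alpha subunit, had log2 levels of 10.82, 10.80 and 10.92 with Ac-4-deoxy-GlcNAc, 10.82, 10.87 and 10.70 with Ac-GlcNAc, and 10.74, 10.31 and 10.57 in untreated cells. The Ac-4-deoxy-GlcNAc arrays lay above all untreated arrays, the Ac-GlcNAc arrays overlapped them, and untreated array 2 was the lowest. The difference was 0.30 (95% interval 0.06 to 0.55, adjusted p = 0.0939) with Ac-4-deoxy-GlcNAc and 0.26 (0.01 to 0.50, adjusted p = 0.173) with Ac-GlcNAc. In the fit without untreated array 1 the Ac-4-deoxy-GlcNAc difference was 0.40 with an adjusted p of 0.0332, the only pass in 19 alternatives (adjusted p up to 0.519).

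PSMA5, another alpha subunit, had 8.84, 8.63 and 8.72 with Ac-4-deoxy-GlcNAc, 8.85, 8.65 and 9.07 with Ac-GlcNAc, and 8.50, 8.46 and 8.49 in untreated cells. Both treated groups lay above all untreated arrays, which were close to each other, and the treated groups overlapped. The difference was 0.25 (0.01 to 0.49, adjusted p = 0.148) with Ac-4-deoxy-GlcNAc and 0.37 (0.13 to 0.61, adjusted p = 0.0939) with Ac-GlcNAc. PSMA2, chosen after its values were seen because it had the smallest adjusted p of any member, stood at 8.58, 8.50 and 8.53 with Ac-4-deoxy-GlcNAc, 8.35, 8.33 and 8.51 with Ac-GlcNAc, and 8.28, 8.30 and 8.23 in untreated cells. Both treated groups again lay above the untreated arrays, Ac-GlcNAc array 2 only just. The difference was 0.27 (0.07 to 0.46, adjusted p = 0.0723) with Ac-4-deoxy-GlcNAc and 0.13 (-0.07 to 0.32, adjusted p = 0.373) with Ac-GlcNAc. With arrays weighted by their quality the adjusted p for Ac-4-deoxy-GlcNAc was 0.0454, the only pass in 19 alternatives (up to 0.179). The remaining alpha subunits PSMA1, PSMA4 and PSMA7 differed by 0.08 to 0.23 with Ac-4-deoxy-GlcNAc and by 0.21 to 0.23 with Ac-GlcNAc.

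The beta ring, which cuts the substrate, showed less. Its 8 genes had a median of 0.08 with Ac-4-deoxy-GlcNAc (6 above 0) and 0.13 with Ac-GlcNAc (8 above 0). After cyclic loess the medians were 0.02 and 0.01, with 4 of 8 above 0 for either compound. Between the compounds the median was -0.08, with 1 above 0 and 7 below.

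Of the cutting subunits, PSMB5 carries the chymotrypsin-like activity, the main target of proteasome inhibitor drugs. PSMB5 had 10.11, 10.21 and 10.56 with Ac-4-deoxy-GlcNAc, 10.37, 10.49 and 10.29 with Ac-GlcNAc, and 10.40, 10.18 and 10.29 in untreated cells. The 3 groups overlapped, with differences of 0.00 (-0.26 to 0.26, adjusted p = 0.995) for Ac-4-deoxy-GlcNAc and 0.09 (-0.17 to 0.35, adjusted p = 0.647) for Ac-GlcNAc. PSMB6, the caspase-like subunit, had 10.49, 10.62 and 10.68 with Ac-4-deoxy-GlcNAc, 10.71, 10.68 and 10.51 with Ac-GlcNAc, and 10.52, 9.91 and 10.33 in untreated cells. The untreated arrays spread widely: array 1 reached into both treated groups and array 2 was far below. Its differences were the largest of the ring, 0.35 (0.06 to 0.64, adjusted p = 0.104) and 0.38 (0.09 to 0.68, adjusted p = 0.119). Without untreated array 1 they were 0.48 (adjusted p = 0.0308) and 0.52 (adjusted p = 0.0423). Over 19 alternatives PSMB6 passed in 1 with Ac-4-deoxy-GlcNAc (adjusted p up to 0.685) and in 2 with Ac-GlcNAc.

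PSMB7, the trypsin-like subunit, had 10.25, 10.28 and 10.57 with Ac-4-deoxy-GlcNAc, 10.45, 10.42 and 10.30 with Ac-GlcNAc, and 10.35, 10.17 and 10.23 in untreated cells. The groups overlapped, and the differences were 0.12 (-0.11 to 0.35) and 0.14 (-0.09 to 0.37). PSMB10, which takes the place of PSMB7 in the interferon-induced immunoproteasome, had 6.98, 7.02 and 7.24 with Ac-4-deoxy-GlcNAc, 7.03, 7.29 and 6.87 with Ac-GlcNAc, and 7.01, 6.86 and 6.89 in untreated cells. Here too the groups overlapped, with differences of 0.16 (-0.09 to 0.41) and 0.14 (-0.11 to 0.40).

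In the base of the 19S regulator, the sign of the Ac-GlcNAc median moved with the scaling of the arrays. The 6 base genes had medians of -0.12 with Ac-4-deoxy-GlcNAc (2 above 0 and 4 below) and 0.09 with Ac-GlcNAc (4 above and 2 below). After cyclic loess the medians were -0.19 (1 of 6 above 0) and -0.02 (2 of 6 above 0). With array SD, which differed between Ac-GlcNAc and untreated arrays, as a covariate the medians were -0.15 (1 of 6 above 0) and -0.12 (0 of 6 above 0). PSMC2, an ATPase of the base, was chosen after its values were seen because it had the smallest adjusted p between the compounds. It had 8.53, 8.93 and 8.95 with Ac-4-deoxy-GlcNAc, 9.25, 9.16 and 9.52 with Ac-GlcNAc, and 9.13, 8.81 and 9.28 in untreated cells. All Ac-4-deoxy-GlcNAc arrays lay below all Ac-GlcNAc arrays, and the untreated arrays overlapped both. The difference of Ac-4-deoxy-GlcNAc from Ac-GlcNAc was -0.50 (-0.82 to -0.19, adjusted p = 0.0972), and each compound differed less from untreated cells, by -0.27 (-0.58 to 0.05) and 0.24 (-0.08 to 0.55). The adjusted p between the compounds was 0.0379 with array weights, 0.0349 when only probe sets above the median level were tested and 0.0486 without untreated array 2. It was 0.402 without Ac-4-deoxy-GlcNAc array 1 and 0.365 without Ac-GlcNAc array 3, and over 19 alternatives it passed in those 3. PSMC2 overlaps the genes PMPCB and SLC26A5 in the RefSeq annotation.

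PSMD4, a ubiquitin receptor of the 19S base, was lower on average with both compounds. It had 5.82, 5.42 and 5.19 with Ac-4-deoxy-GlcNAc, 5.39, 5.32 and 5.29 with Ac-GlcNAc, and 5.36, 6.02 and 6.13 in untreated cells. Untreated array 1 lay among the treated arrays, so the groups overlapped. The difference was -0.36 (-0.75 to 0.04, adjusted p = 0.196) with Ac-4-deoxy-GlcNAc and -0.50 (-0.90 to -0.11, adjusted p = 0.124) with Ac-GlcNAc. Without untreated array 1 they were -0.59 (adjusted p = 0.0236) and -0.74 (adjusted p = 0.0291). Over 18 alternatives PSMD4 passed in 1 with Ac-4-deoxy-GlcNAc (adjusted p up to 0.803) and in 2 with Ac-GlcNAc. Its probe set had a mean of 5.55, the only member below the median of all probe sets, and PSMD4 is also annotated on a probe set shared with PIPSL and PIP5K1A that was not used here. How much of the PSMD4 transcript this probe set reads was not tested.

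The other base genes, PSMC3, PSMC4, PSMD1 and PSMD2, differed by -0.17 to 0.17 with Ac-4-deoxy-GlcNAc and by -0.04 to 0.17 with Ac-GlcNAc. The lid, an outer scaffold of which 5 genes were measured, had medians of 0.19 with Ac-4-deoxy-GlcNAc (4 above 0) and 0.14 with Ac-GlcNAc (5 above 0), against 0.12 and 0.02 after cyclic loess. PSMD11, the lid subunit that clamps the regulator to the core, had 10.96, 11.05 and 11.08 with Ac-4-deoxy-GlcNAc, 11.12, 11.10 and 11.00 with Ac-GlcNAc, and 10.95, 10.69 and 10.87 in untreated cells. Both treated groups lay above the untreated arrays, though untreated array 1 was next to the lowest Ac-4-deoxy-GlcNAc array. The differences were 0.20 (-0.01 to 0.40, adjusted p = 0.180) and 0.24 (0.03 to 0.45, adjusted p = 0.148).

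The promoters printed next are those of the genes named by rule whose window held the core of the antioxidant response element, TGACNNNGC, to which NFE2L1 binds with small MAF proteins. Each runs 5′ to 3′ on the minus strand of GRCh38.p14 in RefSeq, from 250 bases before to 50 after the gene's start, with the match in capitals, and the search covered both strands. PSMD12 lies at chr17:67366528-67366827, PSMD5 at chr9:120842873-120843172, PSME2 at chr14:24146561-24146860, PSME4 at chr2:53970944-53971243 and PSMG1 at chr21:39183402-39183701.
PSMD12: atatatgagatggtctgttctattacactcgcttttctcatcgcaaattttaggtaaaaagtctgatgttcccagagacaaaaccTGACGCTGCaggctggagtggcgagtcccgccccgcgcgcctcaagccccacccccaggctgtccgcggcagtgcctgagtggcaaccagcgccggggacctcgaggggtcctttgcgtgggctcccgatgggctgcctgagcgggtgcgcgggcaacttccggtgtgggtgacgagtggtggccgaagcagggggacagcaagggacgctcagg
PSMD5: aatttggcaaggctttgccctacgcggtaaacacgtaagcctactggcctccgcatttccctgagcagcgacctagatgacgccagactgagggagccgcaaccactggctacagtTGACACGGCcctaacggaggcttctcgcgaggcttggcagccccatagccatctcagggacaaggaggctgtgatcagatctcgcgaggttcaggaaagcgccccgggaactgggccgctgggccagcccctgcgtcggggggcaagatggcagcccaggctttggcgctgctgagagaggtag
PSME2: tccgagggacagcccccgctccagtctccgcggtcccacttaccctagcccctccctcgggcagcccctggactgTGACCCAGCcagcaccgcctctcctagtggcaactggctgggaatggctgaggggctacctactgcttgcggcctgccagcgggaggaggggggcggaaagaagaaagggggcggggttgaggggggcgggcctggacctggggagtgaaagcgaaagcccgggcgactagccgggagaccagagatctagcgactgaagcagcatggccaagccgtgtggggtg
PSME4: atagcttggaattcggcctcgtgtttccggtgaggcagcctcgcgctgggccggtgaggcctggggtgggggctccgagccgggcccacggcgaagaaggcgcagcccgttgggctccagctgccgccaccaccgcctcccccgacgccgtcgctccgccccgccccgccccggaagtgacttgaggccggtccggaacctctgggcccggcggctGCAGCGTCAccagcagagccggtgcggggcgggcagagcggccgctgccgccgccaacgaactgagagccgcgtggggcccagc
PSMG1: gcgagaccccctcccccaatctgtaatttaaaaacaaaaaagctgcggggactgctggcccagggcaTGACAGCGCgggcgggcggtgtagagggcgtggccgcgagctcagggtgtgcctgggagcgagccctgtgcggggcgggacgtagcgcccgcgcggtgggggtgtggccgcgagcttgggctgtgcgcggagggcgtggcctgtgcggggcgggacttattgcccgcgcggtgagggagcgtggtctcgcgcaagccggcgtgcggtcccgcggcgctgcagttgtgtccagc
In PSME4 the match lies on the other strand, so its capitals read the reverse complement of the core. The match starts at base 86 of the window in PSMD12, 117 in PSMD5, 76 in PSME2, 217 in PSME4 and 68 in PSMG1.

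Windows were found for 30 of the 36 measured members. The core stood in 12 of 30 (40.0%), against 16.1% of 27305 genes with a window and 17.9% of 15842 protein-coding genes. The CCAAT box, a general promoter element, stood in 16 of 30 (53.3%), against 39.7% of genes with a window. Of the promoters printed only that of PSMG1 held this box, which shared no base with the core. The 12 members with the core had median log2 differences of 0.12 with Ac-4-deoxy-GlcNAc and 0.15 with Ac-GlcNAc, and the 18 without it 0.13 and 0.14. A match is a description of letters and does not show that a factor binds there.

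PSMD12, a lid scaffold subunit, had 8.99, 8.76 and 9.04 with Ac-4-deoxy-GlcNAc, 8.77, 8.91 and 8.86 with Ac-GlcNAc, and 8.66, 8.61 and 8.73 in untreated cells. Both treated groups lay above the untreated arrays, Ac-4-deoxy-GlcNAc array 2 and Ac-GlcNAc array 1 only just. The differences were 0.26 (0.05 to 0.48, adjusted p = 0.0981) and 0.18 (-0.03 to 0.39, adjusted p = 0.258).

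PSMD5, which holds parts of the base during assembly, had 9.80, 9.92 and 9.98 with Ac-4-deoxy-GlcNAc, 10.00, 9.94 and 9.91 with Ac-GlcNAc, and 9.78, 9.47 and 9.74 in untreated cells. Both treated groups lay above the untreated arrays, of which array 2 was the lowest. The differences were 0.23 (0.01 to 0.46, adjusted p = 0.142) and 0.28 (0.06 to 0.51, adjusted p = 0.124). PSMD10, also called gankyrin, an assembly chaperone of the base, had 9.23, 9.56 and 9.90 with Ac-4-deoxy-GlcNAc, 9.78, 9.94 and 9.80 with Ac-GlcNAc, and 10.03, 9.82 and 9.79 in untreated cells. The Ac-4-deoxy-GlcNAc arrays spread widely and array 3 lay among the untreated arrays. The differences were -0.32 (-0.62 to -0.01, adjusted p = 0.147) and -0.04 (-0.35 to 0.27, adjusted p = 0.873). PSMD9, the third of these chaperones, differed by 0.11 and 0.08.

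Among the activators the median was 0.18 with Ac-4-deoxy-GlcNAc (3 of 4 above 0) and 0.23 with Ac-GlcNAc (4 of 4 above 0), against 0.13 and 0.11 after cyclic loess. PSME4, the single-chain activator PA200 found in the nucleus, had 10.33, 10.05 and 10.06 with Ac-4-deoxy-GlcNAc, 9.87, 9.91 and 10.23 with Ac-GlcNAc, and 9.74, 9.66 and 9.95 in untreated cells. The Ac-4-deoxy-GlcNAc arrays lay above all untreated arrays and the Ac-GlcNAc arrays overlapped them. The differences were 0.36 (0.10 to 0.63, adjusted p = 0.0723) and 0.22 (-0.04 to 0.49, adjusted p = 0.258). The first had an adjusted p of 0.0444 with a trended, robust variance prior and 0.0394 when only probe sets above the median level were tested, the only passes in 19 alternatives (up to 0.368).

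PSME2, the beta subunit of the interferon-inducible activator PA28, had 7.54, 7.76 and 7.27 with Ac-4-deoxy-GlcNAc, 7.87, 7.99 and 7.30 with Ac-GlcNAc, and 7.81, 7.47 and 6.63 in untreated cells. Untreated array 3 was far below the others, and the SD of 0.61 within the untreated group was the largest of any member. The differences were 0.22 (-0.32 to 0.76, adjusted p = 0.564) and 0.42 (-0.12 to 0.96, adjusted p = 0.288). PSME1, its partner in PA28, differed by -0.04 and 0.02, and PSME3, the nuclear relative, by 0.14 and 0.23.

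PSMG1, a chaperone that starts assembly of the alpha ring, had 8.59, 8.43 and 8.85 with Ac-4-deoxy-GlcNAc, 8.53, 8.55 and 8.46 with Ac-GlcNAc, and 8.44, 8.24 and 8.33 in untreated cells. The Ac-GlcNAc arrays lay just above the untreated arrays, and Ac-4-deoxy-GlcNAc array 2 lay within them. The differences were 0.28 (0.04 to 0.52, adjusted p = 0.106) and 0.17 (-0.07 to 0.41, adjusted p = 0.319). PSMG3 differed by -0.19 and 0.06, and POMP, the maturation factor of the core, by 0.06 and 0.12.

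NFE2L1 itself had 10.28, 10.30 and 10.42 with Ac-4-deoxy-GlcNAc, 10.45, 10.43 and 10.38 with Ac-GlcNAc, and 10.41, 10.29 and 10.35 in untreated cells. The 3 groups overlapped. The differences were -0.01 (-0.20 to 0.18, adjusted p = 0.929) and 0.07 (-0.12 to 0.26, adjusted p = 0.622). NFE2L1 is regulated largely after translation, which these arrays do not measure.

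**Figure D4:**
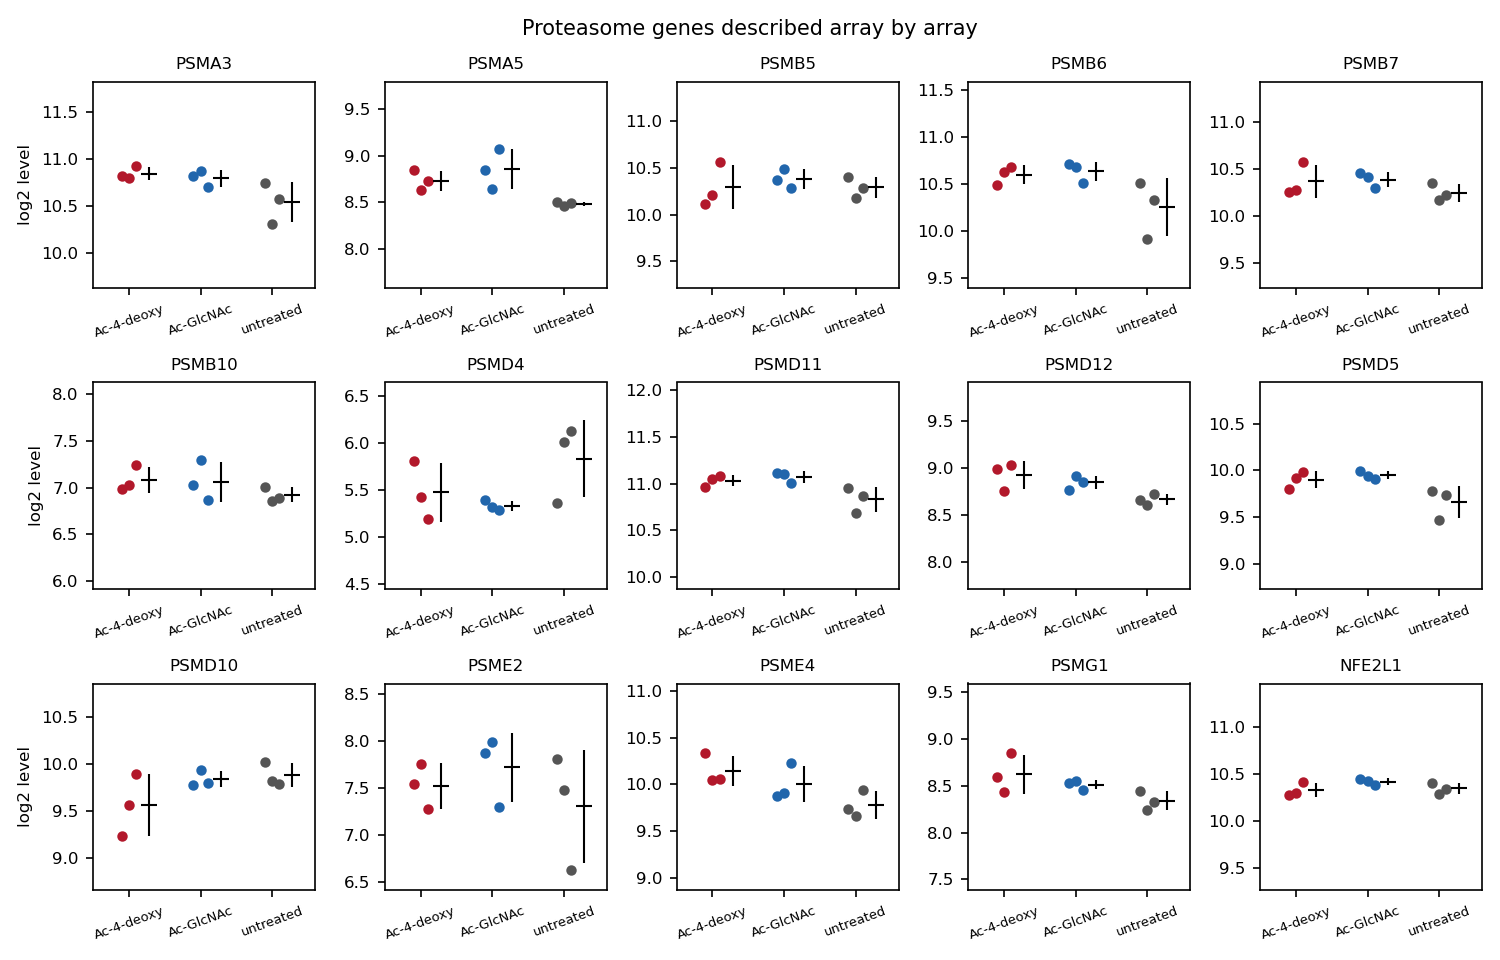
Log2 level on each array (points), group mean (short horizontal line) and SD (vertical line, n = 3) for the 15 genes named by rule, 1 panel each, centred on the gene and spanning the same log2 range, with the groups in the order Ac-4-deoxy-GlcNAc, Ac-GlcNAc and untreated. PSMA5, PSMD11, PSMD12 and PSMD5 have both treated groups above all untreated arrays, while PSMB5, PSMB7, PSMB10 and NFE2L1 overlap in all 3 groups.

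The compounds, which differ by 1 hydroxyl group of the sugar, were compared at the same dose and time in each of the 36 members. The comparison was unpaired, with p adjusted over all 17859 probe sets. As given above, 0 of 36 passed the adjusted threshold, and the differences ran from -0.50 for PSMC2 to 0.14. Apart from PSMC2, only PSME2 had an interval reaching past 1.5-fold, at -0.20 (-0.74 to 0.34, adjusted p = 0.867). By class the median difference of Ac-4-deoxy-GlcNAc from Ac-GlcNAc was -0.06 for the 14 core subunits, -0.04 for the 11 base and lid subunits and -0.08 for the activators. The members with an unadjusted p under 0.05 were PSMC2, PSMB4 (-0.20, -0.39 to -0.01) and PSMG3 (-0.24, -0.47 to -0.02). NFE2L1 differed by -0.08 (-0.28 to 0.11).

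Lists of genes that work with the proteasome held a few that passed, to be read beside array-wide shares of 11.0% for Ac-4-deoxy-GlcNAc and 0.442% for Ac-GlcNAc. Of 15 measured other subunits and bound factors (19 listed), 1 rose with Ac-4-deoxy-GlcNAc: USP14, a deubiquitinase that docks on the 19S base. USP14 had 10.52, 10.49 and 10.65 with Ac-4-deoxy-GlcNAc, 10.62, 10.51 and 10.60 with Ac-GlcNAc, and 10.38, 10.09 and 10.13 in untreated cells, with both treated groups above the untreated arrays. It was higher by 0.36 (SE 0.10, adjusted p = 0.0400) with Ac-4-deoxy-GlcNAc, a call kept in 1 of 6 fits that left out 1 array of the compared groups (adjusted p 0.0156 to 0.160). With Ac-GlcNAc the difference was 0.38 (adjusted p = 0.0887).

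Of 14 measured partners and processing factors of NFE2L1 (17 listed), 3 rose with Ac-4-deoxy-GlcNAc and 0 passed with Ac-GlcNAc. SEL1L, part of the membrane complex that draws proteins out of the endoplasmic reticulum, had 8.55, 8.47 and 8.59 with Ac-4-deoxy-GlcNAc, 8.39, 8.47 and 8.40 with Ac-GlcNAc, and 8.16, 8.09 and 8.09 in untreated cells. All treated arrays lay above all untreated arrays. The difference was 0.42 (SE 0.09, adjusted p = 0.0103) with Ac-4-deoxy-GlcNAc, called in 6 of 6 fits without 1 compared array, and 0.31 (adjusted p = 0.0891) with Ac-GlcNAc. BACH1, a repressor that competes for the same promoter elements, was higher by 0.32 (adjusted p = 0.0453) and BTRC, a ubiquitin ligase subunit, by 0.34 (adjusted p = 0.0488) with Ac-4-deoxy-GlcNAc. Those calls held in 1 of 6 fits without 1 compared array for BACH1 (adjusted p up to 0.184, and 0.0640 after cyclic loess) and in 2 of 6 for BTRC (up to 0.185).

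Of 11 measured genes of ubiquitin and its shuttles (16 listed), 0 were called in any comparison. Of 9 measured interferon-inducible antigen processing genes (15 listed), 1 fell with Ac-4-deoxy-GlcNAc: TAP1, which carries proteasome-made peptides into the endoplasmic reticulum. TAP1 had 9.27, 9.50 and 9.46 with Ac-4-deoxy-GlcNAc, 9.53, 9.47 and 9.59 with Ac-GlcNAc, and 9.81, 9.80 and 9.92 in untreated cells, so all treated arrays lay below all untreated arrays. The difference was -0.44 (SE 0.10, adjusted p = 0.0136), with an adjusted p of 0.0571 without Ac-4-deoxy-GlcNAc array 1, and -0.31 (adjusted p = 0.0965) with Ac-GlcNAc. PSMB8, the immunoproteasome counterpart of PSMB5 on the same list, differed by -0.28 with either compound (adjusted p = 0.0890 and 0.129).

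Of 9 measured heat shock factor targets (12 listed), 1 rose with each compound: CHORDC1, a chaperone partner. It differed by 1.77 (SE 0.26, adjusted p = 0.00168) with Ac-4-deoxy-GlcNAc and 1.34 (SE 0.26, adjusted p = 0.0456) with Ac-GlcNAc. CHORDC1 had 10.59, 9.97 and 10.21 with Ac-4-deoxy-GlcNAc, 9.95, 9.78 and 9.75 with Ac-GlcNAc, and 8.92, 7.67 and 8.86 in untreated cells. Untreated array 2 was far below the others. Over 19 alternatives the differences ran from 1.20 to 1.99 and from 0.68 to 1.56. The Ac-GlcNAc call held in 3 of 6 fits without 1 compared array, with adjusted p up to 0.193, and was lost after cyclic loess (adjusted p = 0.0903). Between the compounds 0 genes of these lists were called.

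The cells carried epithelial markers, of which 7 of 12 measured lay above the 75th percentile of all probe sets and 1, WT1, below the median. Leukocyte markers were below the median in 5 of 5 cases, endothelial markers in 4 of 4, macrophage markers in 3 of 4 and fibroblast markers in 4 of 5. The log2 mean of the fibroblast list per array was 5.20 to 5.24 with Ac-4-deoxy-GlcNAc, 5.20 to 5.35 with Ac-GlcNAc and 5.48 to 5.68 in untreated cells, with LUM and POSTN lower with Ac-4-deoxy-GlcNAc (-0.46 and -0.60, adjusted p = 0.0474 and 0.00784). Of the other markers, CDH1 (0.45, adjusted p = 0.0139) and PECAM1 (0.41, adjusted p = 0.0178) were higher, and KRT19 (-0.49, adjusted p = 0.0122), KRT7 (-0.46, adjusted p = 0.0287) and CD68 (-0.37, adjusted p = 0.0455) lower, with Ac-4-deoxy-GlcNAc, while 0 of the 30 measured markers passed with Ac-GlcNAc. Between the compounds CDH1 (0.55, adjusted p = 0.0112) and KDR (0.36, adjusted p = 0.0497) were higher and CLDN4 (-0.74, adjusted p = 0.0185) lower with Ac-4-deoxy-GlcNAc. The epithelial list mean was 8.86 to 9.01 with Ac-4-deoxy-GlcNAc, 9.00 to 9.10 with Ac-GlcNAc and 9.02 to 9.09 in untreated cells. The macrophage list mean was 5.63 to 5.77, 5.65 to 5.85 and 5.81 to 5.98 in the same groups, and the endothelial list mean 5.17 to 5.26 with Ac-4-deoxy-GlcNAc, at most 5.07 with Ac-GlcNAc and 5.04 to 5.14 in untreated cells. The leukocyte list mean was 4.25 to 4.33 with Ac-4-deoxy-GlcNAc, 4.19 to 4.34 with Ac-GlcNAc and 4.29 to 4.75 in untreated cells. Gene means ran only from 4.01 to 4.69 in that list and from 4.29 to 6.94 in the fibroblast list, so both read mostly dim probe sets. The part of these markers in the values above was not tested.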

How the data were processed

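RNA of 9 SKOV3 cultures was measured on whole-transcript arrays. The deposited values are log2 values, 1 per probe set and array, which the authors obtained by RMA in Partek; the genome build was hg18 (both per the submitters' processing notes), and versions and settings are not given in the sources used here. No scanner files were used here, so signal over background could not be assessed, and precision is limited by the number of arrays. Standard errors of log2 differences had a median of 0.110 over all probe sets and 0.105 over the members.

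The deposited values were fitted without rescaling in limma 3.58.1 under R 4.3.3 (functions lmFit and eBayes, group as the only term, all 9 arrays, 6 residual degrees of freedom). Two-sided p-values were adjusted by the Benjamini-Hochberg method over 17859 probe sets, and an adjusted p under 0.05 was called. The fit was also run on simulated data with independent noise for every probe set and array. Those data held no shift or spread shared across an array, so they cannot speak to the array differences described above. Groups came from the sample titles, and no batch is given in the sources used here.

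Symbols of the 36 members were matched by gene identifier to RefSeq for GRCh38.p14, and promoter windows came from the same build. Positions in it were used otherwise only to see which genes overlap: PSMC2, PSMD1 and PSMD10 overlap another protein-coding gene, and PSMA3 and PSMD6 an antisense gene.

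The members and lists were chosen with earlier results of these data known. Values on every array were to be given for called members, NFE2L1, PSMB5, PSMB6, PSMB7, PSMB10 and, in each class, the member with the largest difference with either compound, while in each other list up to 4 called genes, or up to 2 of lowest p in a list without calls, could be named. The alternatives were a block for replicate number, cyclic loess, quantile normalization, median centring, array weights, a trended and robust prior, the 6 compared arrays alone, array SD as a covariate, probe sets above the median level, and leaving out arrays. Reporting every probe set of a gene gave no alternative value, since each member had 1.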

Additional observations from a re-analysis of the deposited data

How the results depend on the processing

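The 36 members had 0 calls in each comparison with the values as deposited and also with cyclic loess, quantile normalization, median centring and the 6 compared arrays alone. Deviations of same-numbered arrays correlated between -0.245 and 0.369, and those of differently numbered arrays between -0.402 and 0.406. With 3 arrays a group these values cannot settle whether the replicate numbers pair the arrays. With the replicate block, members called remained 0 in each comparison, and all probe sets called were 2207, 324 and 432 for Ac-4-deoxy-GlcNAc against untreated, Ac-GlcNAc against untreated and Ac-4-deoxy-GlcNAc against Ac-GlcNAc, against 1968, 79 and 425 without it. Array weights called 1 member (PSMA2), 3 (PSMB6, PSMD4 and PSME2) and 1 (PSMC2) in these comparisons and 4 in the F test. All probe sets called with array weights were 1916, 1760 and 1187 in the same comparisons. The trended prior called 1 (PSME4) with Ac-4-deoxy-GlcNAc, where it called 2233 of all probe sets, and it called 141 of all probe sets with Ac-GlcNAc. The array SD covariate called 1 (PSMC2, -0.54, adjusted p = 0.0413) with Ac-4-deoxy-GlcNAc and 1 in the F test, with 596 and 2 of all probe sets for the compounds against untreated. Above the median level, 1 member was called with Ac-4-deoxy-GlcNAc (PSME4), 1 between the compounds (PSMC2) and 1 in the F test. Of the 8930 probe sets above that level, 1681 were called with Ac-4-deoxy-GlcNAc, 154 with Ac-GlcNAc and 507 between the compounds. The 6 arrays alone gave 818 and 48 of all probe sets for the compounds against untreated, and leaving out untreated 2 and Ac-4-deoxy-GlcNAc 1 together gave 730 and 49. For Ac-GlcNAc all probe sets called were 47 with cyclic loess, 36 with quantile normalization and 32 with median centring. Some medians for Ac-GlcNAc were lower after scaling: with cyclic loess and quantile normalization all members had 0.0350 and 0.0348, the alpha ring 0.12 and 0.12, and activators 0.11 and 0.11. With both arrays left out, activators had 0.16 for Ac-GlcNAc and -0.0166 between the compounds. Leaving out 1 array at a time, members called ran from 0 to 3, 0 to 2 and 0 to 1 in the 3 comparisons and 0 to 2 in the F test, all probe sets called from 604 to 3076, 4 to 1359 and 141 to 659, and the activators' medians from 0.0404 to 0.28, 0.15 to 0.26 and -0.11 to -0.0166. Without untreated replicate 1, PSMA3, PSMB6 and PSMD4 were called with Ac-4-deoxy-GlcNAc and PSMB6 and PSMD4 with Ac-GlcNAc. All probe sets called in that fit were 3076 and 1359. The cause of these shifts was not tested.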
